A study of Mus musculus with 10 samples.

Results

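The genes described here encode the matrix metalloproteases (Mmp), the membrane-anchored ADAM proteases (Adam), the secreted ADAMTS proteases (Adamts), the protease-like ADAMTSL proteins (Adamtsl) and the tissue inhibitors of metalloproteases (Timp). Members were chosen by gene symbol alone, with earlier results of these data known. Of the 13578 genes in the table, 49 carry such a symbol, 10 of them Mmp, 14 Adam, 18 Adamts, 4 Adamtsl and 3 Timp genes. Expression was measured by RNA sequencing in the gonadal soma, sorted as Oct4-negative cells, of single female C57BL/6 mouse embryos at embryonic day 13.5. Every embryo of both groups was Gulo-/-, lacking the enzyme that makes vitamin C in the mouse, so that vitamin C came from the mother's diet. In 5 embryos vitamin C was withdrawn over the first 2 weeks of gestation (withdrawn), and 5 embryos had it at a physiological level (supplied). The comparison asks how the withdrawal of maternal vitamin C bears on the somatic cells that surround the germ line.

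Metalloproteases hold a zinc ion in their active site and cut proteins outside or at the surface of the cell. Matrix metalloproteases cut collagens and other matrix proteins, ADAM proteases release the outer parts of membrane proteins such as Notch receptors and growth factor precursors, and ADAMTS proteases process procollagens and cut the proteoglycans of the matrix. TIMP proteins block the active site. In a developing gonad the matrix between supporting cells, stroma, vessels and germ cells is built and remodelled while the ovary takes shape, and vitamin C is a cofactor of the enzymes that hydroxylate collagen.

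Expression was given by the authors as regularised log2 (rlog) values, and each change below is withdrawn minus supplied on that scale. Such values pull the differences of weak genes towards 0. Sample medians lay between 9.12 and 9.14, and the read depth behind the values is unknown. The label of gonadal soma was checked on markers of pregranulosa and germ cells. No male or sex-linked marker was set beside them, so the check does not settle the sex of the embryos. All 8 markers of pregranulosa cells had values, with a mean rlog between 10.77 and 11.04 in withdrawn embryos and between 10.86 and 11.02 in supplied embryos, whereas the germ cell genes Pou5f1, Ddx4, Dazl, Dppa3 and Stra8 had no row under these symbols. The other 3 of the 8 germ cell markers had low values, with Nanos3 between 4.39 and 4.48 in withdrawn and 4.36 and 4.45 in supplied embryos, Tfap2c between 4.62 and 4.83 and between 4.58 and 4.68 in the same groups, and Tdrd1 between 5.71 and 5.84 in withdrawn and 5.81 and 6.06 in supplied embryos. In a bulk sample, fewer cells of a type and less RNA per cell cannot be told apart. The samples are single embryos. Embryos 2 and 3 of each group have the same leading number in their titles, and the labels do not say whether that number marks a litter, so p-values speak only of the spread among these 10 embryos.

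By limma 0 of the 49 members passed an adjusted p of 0.05, where 0.0221% of all genes did (3 of 13578). At an unadjusted limma p under 0.05, 3 members were higher in the withdrawn embryos, namely Adamts3, Adam19 and Mmp11, and 0 were lower. Over all genes 5.3% had such a p, with 2.45% on the higher side and 2.84% on the lower. In none of the 49 members did all withdrawn embryos lie on one side of all supplied embryos, where 0.81% of all genes showed such a separation (0.346% higher and 0.464% lower). The changes ran from -0.15 for Adam23 to 0.16 for Adamts2, and 27 of the 49 were smaller than 0.05 in size. No 95% interval of a member reached further than 0.395 from 0.

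Of the 49 members, 33 (67.3%) had a change above 0, beside 50.2% of all genes, and the median change was 0.021 over the members and 0.00021 over all genes. Among the 17 members with a mean rlog of 10 or more, 13 (76.5%) were above 0 with a median change of 0.076, beside 58.1% of all 4630 genes of that level and a median of 0.0097. Among the 32 weaker members 20 (62.5%) were above 0 with a median of 0.014, beside 46.1% of all 8948 genes of that level and a median of -0.0042. By family the median change was 0.0038 for Mmp (6 of 10 above 0), -0.020 for Adam (6 of 14), 0.022 for Adamts (14 of 18), 0.058 for Adamtsl (4 of 4) and 0.076 for Timp (3 of 3). Without supplied embryo 2 the Timp median was 0.038, and the Adamts median ran from 0.013 (supplied embryo 3 left out) to 0.045 (withdrawn embryo 5 left out). These counts and medians describe the lists and were not tested.

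**Figure D1:**
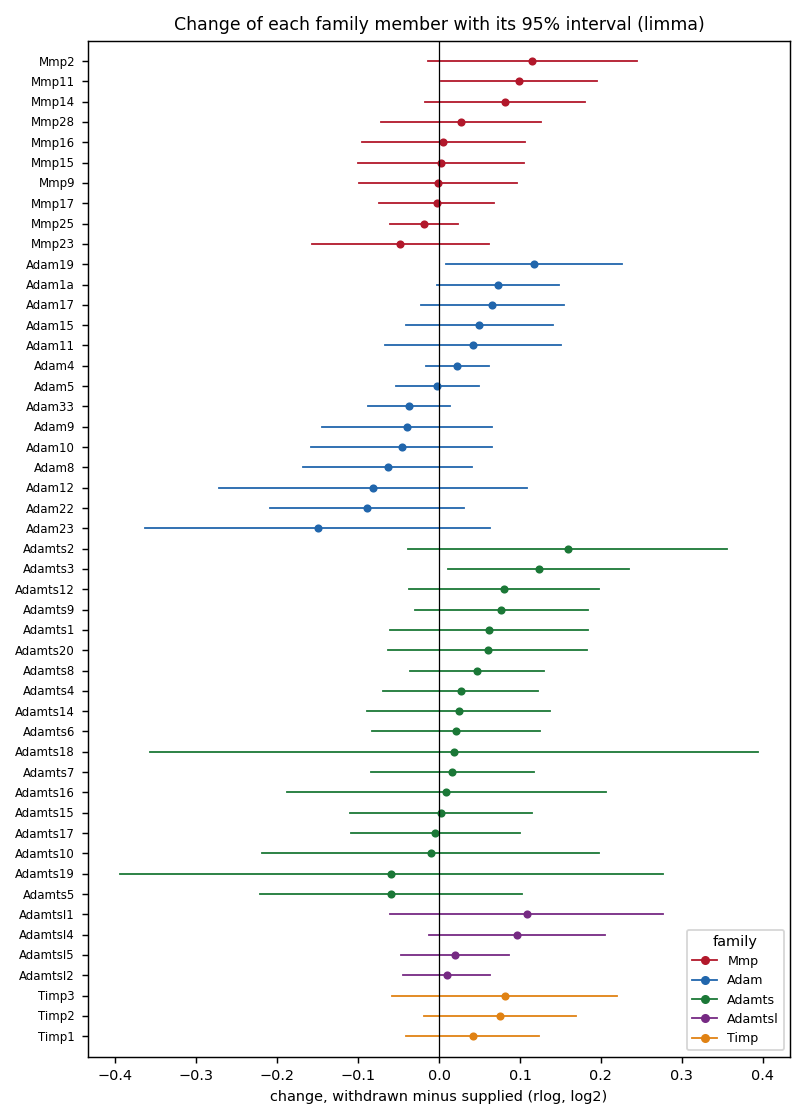
Change of each of the 49 members (dot) with its 95% limma interval (line), as withdrawn minus supplied rlog (log2), coloured by family. Changes lie between -0.15 and 0.16, the intervals of Mmp11, Adam19 and Adamts3 do not reach 0, and Adamts18 and Adamts19 have the widest intervals.

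Stromal markers lay higher in the withdrawn embryos as well. Of 8 stromal markers 7 were above 0, and their mean rlog lay between 13.47 and 13.65 in withdrawn embryos and between 13.29 and 13.52 in supplied embryos. When that mean was entered as a covariate, 26 of the 49 members were above 0. That count was not set beside the share of all genes in the same fit. Some changes grew, such as that of Adamts1 from 0.062 to 0.13, and others shrank, such as that of Mmp14 from 0.082 to 0.015. Of 8 endothelial markers 1 was above 0, with means between 9.04 and 9.17 in withdrawn embryos and between 9.12 and 9.34 in supplied embryos. Of 5 tested neural markers 0 were above 0, with means between 7.77 and 7.89 in withdrawn embryos and between 7.71 and 8.58 in supplied embryos. Of 8 mesonephric markers 1 was above 0, with means between 9.22 and 9.47 in withdrawn embryos and between 9.25 and 9.50 in supplied embryos. The neutrophil list had 0 of its 6 tested members above 0, and ranged between 6.75 and 7.55 in withdrawn embryos and between 6.90 and 8.15 in supplied embryos. Of 8 immediate early genes 7 were above 0, as in the stromal list. Their means lay between 9.67 and 11.44 in withdrawn and between 9.98 and 11.45 in supplied embryos. Above 0 were 3 of 8 macrophage, 3 of 8 erythroid, 4 of 7 mesothelium, 4 of 8 pregranulosa and 2 of 3 germ cell markers. The part that cell makeup has in the changes of the metalloprotease genes was not tested.

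Among the matrix metalloproteases, the gelatinase Mmp2, its activator Mmp14 and the stromelysin Mmp11 had the highest changes of the family. Mmp2 cleaves basement membrane collagen and denatured collagen. It was at 13.04, 13.09, 12.99, 12.95 and 12.90 in the withdrawn embryos, against 12.88, 12.69, 12.86, 13.07 and 12.88 in the supplied embryos. All withdrawn embryos lay above 4 of the supplied ones, and supplied embryo 4 lay among the withdrawn values. The change was 0.12 (SE 0.0612, limma adjusted p = 0.956), or 1.08-fold, and 0.068 without supplied embryo 2. Mmp14, a collagenase held in the membrane that converts the Mmp2 proenzyme to its active form, was at 12.52, 12.47, 12.41, 12.48 and 12.39 in withdrawn embryos and at 12.40, 12.30, 12.39, 12.47 and 12.30 in supplied embryos. The groups overlapped and the change was 0.082 (SE 0.0467, limma adjusted p = 0.960).

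Mmp11, a stromelysin that is activated inside the cell by furin-like proteases, was at 10.44, 10.29, 10.31, 10.40 and 10.31 in withdrawn embryos, against 10.35, 10.24, 10.18, 10.23 and 10.25 in supplied embryos. Supplied embryo 1, at 10.35, was the 1 embryo of its group that lay above any withdrawn embryo. The change of 0.099 had an unadjusted limma p of 0.0459 and an adjusted p of 0.931 (exact permutation p = 0.0476, two-sided, n = 5 each). With the stromal marker mean as a covariate the change of Mmp11 was 0.091, that of Mmp14 0.015 and that of Mmp2 -0.0091.

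The gelatinase Mmp9, known from neutrophils and macrophages, was at 6.85, 6.94, 6.83, 6.77 and 6.93 in withdrawn embryos and at 6.89, 6.79, 7.01, 6.82 and 6.83 in supplied embryos. Its highest value, in supplied embryo 3, was in the embryo with the highest neutrophil marker mean (8.15) of the 10. Withdrawn embryo 2, with the lowest neutrophil marker mean (6.75), had the next highest Mmp9 value. The change of Mmp9 was -0.0015 (SE 0.0464, limma adjusted p = 0.999). Of the other membrane-type enzymes, Mmp15 had a change of 0.0023, Mmp16 of 0.0053, Mmp17 of -0.0031 and Mmp25 of -0.018. Mmp17 and Mmp25 are anchored by a lipid. The change was -0.048 for Mmp23 and 0.027 for Mmp28, known as epilysin. The intervals of all 6 included 0, the widest being that of Mmp23, from -0.16 to 0.061.

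The inhibitors Timp2 and Timp3 had changes close to that of Mmp14. Timp2 blocks metalloproteases and also takes part, bound to Mmp14, in the activation of Mmp2. In withdrawn embryos it was at 11.86, 11.87, 11.75, 11.77 and 11.74, against 11.79, 11.70, 11.74, 11.73 and 11.64 in supplied embryos, a change of 0.076 (SE 0.0445, limma adjusted p = 0.961). Withdrawn embryos 1 and 2 lay above every supplied embryo and the other withdrawn embryos lay within the supplied range. Timp3, which is bound to the matrix and also inhibits Adam17 and ADAMTS proteases, was at 12.61, 12.70, 12.68, 12.37 and 12.50 in withdrawn embryos and at 12.58, 12.32, 12.43, 12.59 and 12.54 in supplied embryos. The lowest Timp3 values were those of withdrawn embryo 4 and supplied embryo 2, and the change was 0.081 (SE 0.0661, limma adjusted p = 0.979).

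Timp1, the soluble inhibitor encoded on the X chromosome, varied little. It was at 7.43, 7.46, 7.39, 7.41 and 7.46 in withdrawn embryos and at 7.35, 7.32, 7.41, 7.44 and 7.43 in supplied embryos, a change of 0.041 (SE 0.0388, limma adjusted p = 0.989). Adjusted for the stromal marker mean, the change of Timp2 was 0.023 and that of Timp3 -0.034. An exon of Timp3 overlaps one of Syn3 on the opposite strand, so these genes may share reads if strand was ignored when reads were counted.

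**Figure D2:**
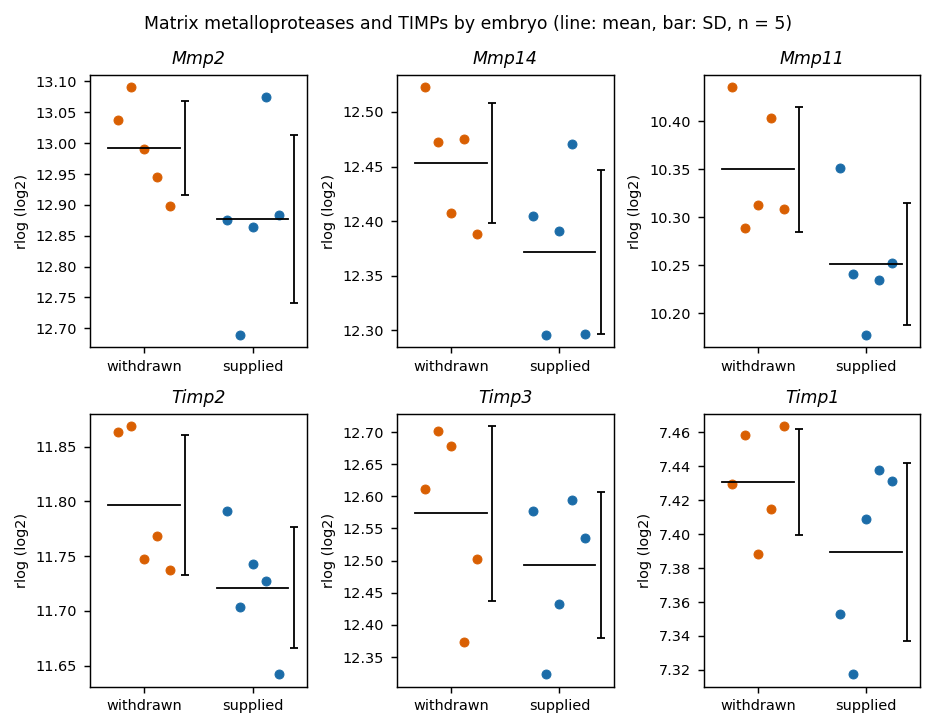
rlog values (log2) of 3 matrix metalloprotease and 3 TIMP genes in each embryo, withdrawn at left and supplied at right, with the group mean (line) and SD (bar, n = 5). In each of the 6 genes the withdrawn mean lies above the supplied mean by 0.041 to 0.12 and the groups overlap.

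Promoter sequence is shown for the Mmp14 and Timp2 pair, whose products act together on Mmp2, as the 250 bases before the annotated start in the RefSeq table of build GRCm38.p6 (the authors' build is mm9). Capitals mark the GC box GGGCGG on either strand, the AP-1 type letters TGAGTCA or TGACTCA and the nuclear receptor motif AAGGTCA, which were the 3 motifs searched on both strands. The Mmp14 window is chr14:54431348-54431597 on the + strand and that of Timp2 is chr11:118355412-118355661 on the - strand.
Mmp14: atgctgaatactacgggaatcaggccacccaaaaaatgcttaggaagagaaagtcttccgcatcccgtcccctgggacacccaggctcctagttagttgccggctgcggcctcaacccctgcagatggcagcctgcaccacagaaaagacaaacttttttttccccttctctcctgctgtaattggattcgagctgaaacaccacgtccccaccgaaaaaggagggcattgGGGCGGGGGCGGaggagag
Timp2: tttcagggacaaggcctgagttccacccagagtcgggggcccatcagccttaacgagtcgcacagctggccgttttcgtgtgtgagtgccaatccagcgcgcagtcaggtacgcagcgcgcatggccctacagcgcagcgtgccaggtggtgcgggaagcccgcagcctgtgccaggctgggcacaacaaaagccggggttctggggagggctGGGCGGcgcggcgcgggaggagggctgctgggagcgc
The Mmp14 window holds 2 GC boxes and 10 CG pairs, and the Timp2 window 1 GC box and 21 CG pairs, where the median over all 32851 promoters was 6. Neither holds AP-1 type letters or the nuclear receptor motif.

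Of the 49 members 29 had a promoter in the table, and 22 of these held a GC box, which 32.7% of all promoters hold. AP-1 type letters were in the window of 1 member, Adam19, beside 4.46% of all promoters, and the nuclear receptor motif in that of 1 member, Adamtsl5, beside 4.08%. A member was counted if any of its promoters held the motif, whereas the shares are of single promoters. The counts of members and these shares are therefore unlike measures. A match describes the letters and is not a binding site.

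Among the ADAM genes, Adam19 had the highest change and Adam23 the lowest. Adam19, a protease of mesenchyme and developing heart that sheds membrane-bound growth factors, was at 11.56, 11.59, 11.51, 11.79 and 11.57 in withdrawn embryos, against 11.54, 11.53, 11.45, 11.49 and 11.42 in supplied embryos. Withdrawn embryo 3 was the 1 withdrawn embryo below any supplied embryo, and withdrawn embryo 4 held the highest value. The change was 0.12 (SE 0.0514), with an unadjusted limma p of 0.0355 and an adjusted p of 0.928 (exact permutation p = 0.0317, two-sided, n = 5 each). Without withdrawn embryo 4 the change of Adam19 was 0.072. The Adam19 window that holds the AP-1 type letters, in capitals, is chr11:46055734-46055983 on the + strand of GRCm38.p6.
Adam19: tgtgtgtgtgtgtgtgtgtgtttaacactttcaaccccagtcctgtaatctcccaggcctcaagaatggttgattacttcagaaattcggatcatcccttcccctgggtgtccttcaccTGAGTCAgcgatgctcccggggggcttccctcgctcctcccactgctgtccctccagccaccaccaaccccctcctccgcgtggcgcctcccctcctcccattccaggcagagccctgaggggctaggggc

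The sheddases of Notch and of tumour necrosis factor had changes smaller than 0.1 that did not pass the test. Adam10, which cuts Notch receptors at the cell surface, was at 12.58, 12.35, 12.33, 12.37 and 12.40 in withdrawn embryos and at 12.51, 12.49, 12.50, 12.39 and 12.37 in supplied embryos. Withdrawn embryo 1 stood above all others while the rest of its group lay below supplied embryos 1, 2 and 3, and the change was -0.046 (SE 0.053, limma adjusted p = 0.991). Adam17, the enzyme that releases tumour necrosis factor and ligands of the epidermal growth factor receptor, was at 10.43, 10.46, 10.34, 10.41 and 10.49 in withdrawn embryos, against 10.35, 10.31, 10.40, 10.36 and 10.39 in supplied embryos. All withdrawn embryos other than embryo 3 lay above all supplied ones, with a change of 0.066 (SE 0.0416, limma adjusted p = 0.963). An exon of Adam17 overlaps one of Iah1 on the opposite strand.

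Adam9, a widely expressed sheddase, was at 10.07, 9.95, 10.08, 10.09 and 10.11 in withdrawn embryos and at 10.09, 10.19, 10.09, 10.17 and 9.96 in supplied embryos, a change of -0.039 (SE 0.0498, limma adjusted p = 0.991). Withdrawn embryo 2 and supplied embryo 5 held its lowest values. The change was 0.050 for Adam15, -0.082 for Adam12, a protease of mesenchyme and muscle, and -0.063 for Adam8, known from leukocytes. None of the 4 had an interval that left out 0.

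Adam11, Adam22 and Adam23 lack the catalytic residues and are known as adhesion and receptor proteins of neurons. Adam23 was at 7.54, 7.85, 7.72, 7.76 and 7.62 in withdrawn embryos and at 7.59, 8.23, 7.96, 7.91 and 7.56 in supplied embryos, with a change of -0.15 (SE 0.101, limma adjusted p = 0.968). For Adam23 it was -0.055 without supplied embryo 2 and -0.22 without supplied embryo 5. Supplied embryos 2 and 3 held its 2 highest values, and they also held the 2 highest means of the neural markers, 8.58 and 8.24, against 7.71 to 7.89 in the other embryos. Their part in the values of Adam23 was not tested. Adam22 was at 9.20, 9.32, 9.07, 9.23 and 9.15 in withdrawn embryos and at 9.34, 9.14, 9.36, 9.36 and 9.20 in supplied embryos, a change of -0.089 (SE 0.0567, limma adjusted p = 0.963), and did not share the order of Adam23, being low in supplied embryo 2. Adam11 had a change of 0.042.

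The remaining ADAM genes were weakly expressed. Adam1a, known from sperm, was at 6.26, 6.30, 6.36, 6.34 and 6.26 in withdrawn embryos, against 6.27, 6.19, 6.15, 6.25 and 6.30 in supplied embryos, with a change of 0.072 (SE 0.0356, limma adjusted p = 0.931). Its exons overlap those of Mapkapk5 on the same strand, so the 2 genes can share reads. Adam33 was at 4.76, 4.75, 4.84, 4.73 and 4.75 in withdrawn embryos and at 4.75, 4.80, 4.79, 4.85 and 4.83 in supplied embryos, a change of -0.037 (SE 0.0241, limma adjusted p = 0.963). Withdrawn embryo 3 stood apart from its group, at the level of the supplied embryos. Adam4 and Adam5, also known from the testis, had changes of 0.023 and -0.0021.

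Of the ADAMTS genes, the procollagen processing enzymes Adamts2 and Adamts3 had the highest changes. Adamts2, Adamts3 and Adamts14 cut the amino-terminal propeptide from procollagens, and Adamts3 also processes the lymphatic growth factor Vegfc. Adamts3 was at 9.23, 9.11, 9.07, 9.09 and 9.24 in withdrawn embryos, against 9.08, 8.89, 8.99, 9.05 and 9.11 in supplied embryos. Withdrawn embryos 1 and 5 stood above all supplied ones and the other 3 overlapped them. The change was 0.12 (SE 0.0528, unadjusted limma p = 0.0327, adjusted p = 0.928), with an exact permutation p of 0.0635 (two-sided, n = 5 each).

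Adamts2 was at 10.91, 10.84, 10.88, 10.48 and 10.89 in withdrawn embryos, against 10.71, 10.30, 10.60, 10.76 and 10.85 in supplied embryos. In each group 1 embryo lay far below the rest, withdrawn embryo 4 and supplied embryo 2. The change of 0.16 (SE 0.0934, limma adjusted p = 0.961) was 0.24 without withdrawn embryo 4, 0.072 without supplied embryo 2 and 0.15 without both, with limma adjusted p-values of 0.999 or more. Adamts14 was at 8.71, 8.75, 8.80, 8.65 and 8.65 in withdrawn embryos and at 8.63, 8.69, 8.55, 8.81 and 8.76 in supplied embryos, with a difference of 0.024 (SE 0.0537, limma adjusted p = 0.995).

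The proteoglycan-cutting members Adamts1, Adamts5 and Adamts9 had changes of either sign. Adamts1, known for cutting versican in the ovulating follicle, was at 12.18, 12.23, 12.27, 12.42 and 12.20 in withdrawn embryos and at 12.08, 12.37, 12.20, 12.21 and 12.13 in supplied embryos, a change of 0.062 (SE 0.0578, limma adjusted p = 0.989). Adamts9, another versicanase, was at 12.07, 12.21, 11.98, 12.08 and 12.13 in withdrawn embryos and at 12.08, 11.97, 12.08, 12.04 and 11.91 in supplied embryos, a change of 0.077 (SE 0.0506, limma adjusted p = 0.963). For both genes the groups overlapped. Adamts5, the main aggrecan-cutting enzyme of mouse cartilage, was at 8.09, 8.30, 8.36, 8.51 and 8.29 in withdrawn embryos and at 8.33, 8.63, 8.27, 8.39 and 8.24 in supplied embryos, with a difference of -0.059 (SE 0.0767, limma adjusted p = 0.991).

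The changes of the other proteoglycanases of the family did not pass either, being 0.027 for Adamts4, 0.047 for Adamts8, 0.0020 for Adamts15 and 0.060 for Adamts20. Adamts7 and Adamts12, which cut the cartilage protein Comp, had changes of 0.016 and 0.080. Adamts6 and Adamts10, which act with fibrillin microfibrils, had changes of 0.021 and -0.010, and Adamts17 one of -0.0048. Exons of Adamts7 overlap those of Tbc1d2b, and exons of Mmp11 those of Chchd10, on the opposite strand.

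Adamts18 and Adamts19 varied more between embryos than any other member, and did so in both groups. Adamts19, known from the developing mouse ovary, was at 11.32, 11.31, 11.61, 10.66 and 11.42 in withdrawn embryos and at 11.48, 10.86, 11.08, 11.47 and 11.74 in supplied embryos. Adamts18 was at 8.33, 8.33, 8.003, 9.08 and 8.30 in withdrawn embryos and at 8.10, 9.08, 8.33, 8.24 and 8.21 in supplied embryos. Withdrawn embryo 4 and supplied embryo 2 held the 2 highest values of Adamts18, both 9.08, against 8.003 to 8.33 in the other 8 embryos. The same 2 embryos held the 2 lowest values of Adamts19, 10.66 and 10.86, against 11.08 to 11.74 in the others. The change was 0.019 for Adamts18 (SE 0.178, limma adjusted p = 0.999) and -0.059 for Adamts19 (SE 0.159, limma adjusted p = 0.998), and 0.024 and -0.026 without these 2 embryos.

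The Adamts18 promoter is shown as that of the member of widest spread. Its window, chr8:113848840-113849089 on the - strand of GRCm38.p6, holds 1 GC box, read on the other strand and given in capitals, and 15 CG pairs.
Adamts18: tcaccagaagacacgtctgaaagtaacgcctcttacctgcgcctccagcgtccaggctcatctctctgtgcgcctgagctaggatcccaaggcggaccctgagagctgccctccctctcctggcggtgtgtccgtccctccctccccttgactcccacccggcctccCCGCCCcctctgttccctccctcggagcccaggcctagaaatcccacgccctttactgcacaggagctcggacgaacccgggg

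Other members took their extremes in the same 2 embryos, which had been noticed from their Adamts18 and Adamts19 values. Of the other 47 members, withdrawn embryo 4 and supplied embryo 2 were the 2 highest embryos for 2 (Adamts1 and Adamts5; 4.26%), beside 2.52% of the other genes. They were the 2 lowest for 6 (Adamts2, Adamts16, Adamts17, Adamtsl2, Mmp9 and Timp3; 12.8%), beside 2.98% of the other genes. Adamts16, the paralog of Adamts18, was at 9.61, 9.37, 9.76, 9.34 and 9.53 in withdrawn embryos and at 9.72, 9.23, 9.35, 9.59 and 9.68 in supplied embryos, with a difference of 0.0089 (SE 0.0931, limma adjusted p = 0.999).

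**Figure D3:**
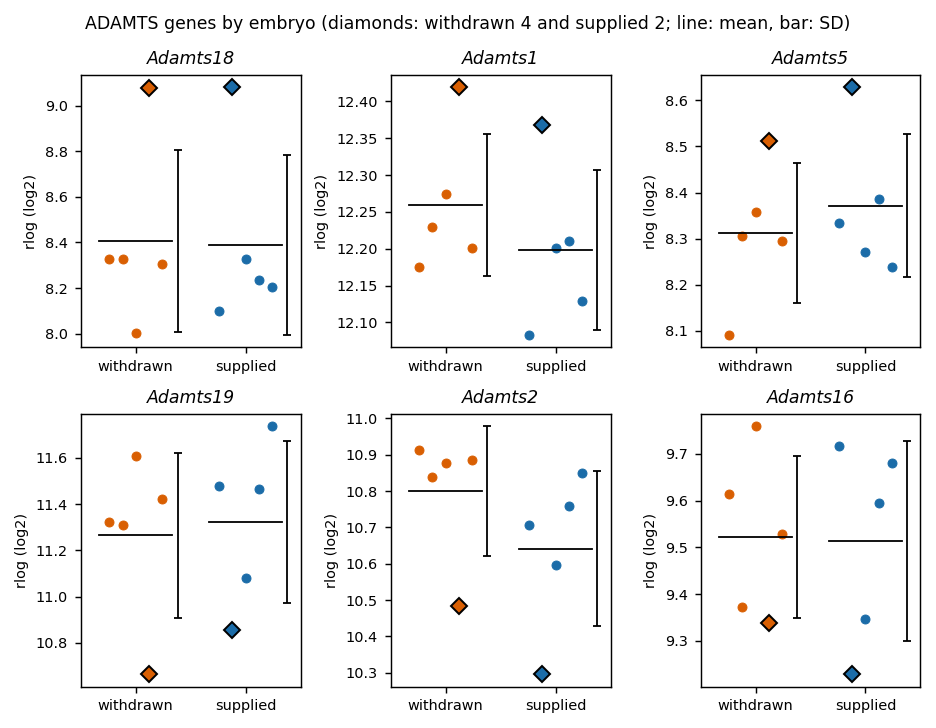
rlog values (log2) of 6 ADAMTS genes in each embryo, withdrawn at left and supplied at right, with the group mean (line) and SD (bar, n = 5) and with withdrawn embryo 4 and supplied embryo 2 as diamonds. The diamonds are the highest of their groups for Adamts18, Adamts1 and Adamts5 and the lowest for Adamts19, Adamts2 and Adamts16.

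Supplied embryo 2 was the lowest of all 10 embryos for 17 of the 49 members (34.7%), beside 11.7% of all genes, and the next most frequent, supplied embryo 3, for 6. It also had the lowest stromal marker mean of the 10 embryos, 13.29, and the highest neural marker mean, 8.58. Withdrawn embryo 4 had a stromal mean of 13.53 and a neural mean of 7.89, so that the 2 embryos did not share these values. The mean of the mesonephric markers was 9.33 in withdrawn embryo 4 and 9.25 in supplied embryo 2, within the range of the other embryos (9.22 to 9.50). The part of these markers in the ADAMTS pattern was not tested.

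**Figure D4:**
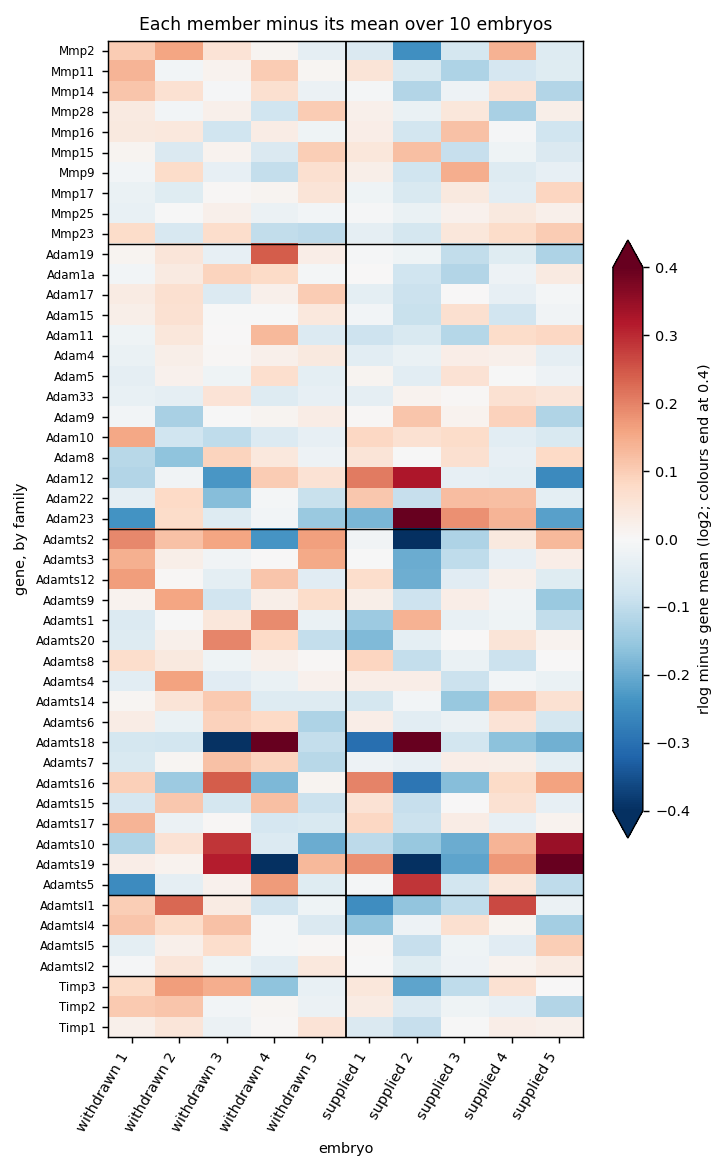
Each of the 49 members in each of the 10 embryos as rlog minus the mean of that gene (log2, colours end at 0.4), withdrawn embryos at left and supplied at right, with lines between the families. Supplied embryo 2 is below the gene mean for most Mmp, Adamts and Timp genes, and Adamts18 and Adamts19 are at opposite ends of the scale in withdrawn embryo 4 and supplied embryo 2.

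The ADAMTSL proteins lack a protease domain, and several bind fibrillin microfibrils. Adamtsl1 was at 9.68, 9.81, 9.61, 9.50 and 9.56 in withdrawn embryos, against 9.33, 9.42, 9.48, 9.84 and 9.55 in supplied embryos. Supplied embryo 4 held the highest value and supplied embryos 1, 2 and 3 the 3 lowest, and the change was 0.11 (SE 0.0798, limma adjusted p = 0.978). Adamtsl4, known for the anchoring of the eye lens, was at 7.64, 7.60, 7.65, 7.52 and 7.47 in withdrawn embryos, against 7.37, 7.51, 7.60, 7.54 and 7.39 in supplied embryos, a change of 0.096 (SE 0.0515, limma adjusted p = 0.956). Adamtsl2, a regulator of TGF-beta availability, was weakly expressed, at 5.38, 5.44, 5.37, 5.35 and 5.43 in withdrawn embryos and at 5.39, 5.34, 5.37, 5.40 and 5.42 in supplied embryos (change 0.0093, SE 0.0254, limma adjusted p = 0.998). Adamtsl5 had a change of 0.019.

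The spread between embryos was set against that of genes of like level. The SD between embryos of 1 group was above that of 90% of the genes within 0.5 rlog of the same mean for 10 of the 49 members. These were Adamts18 (SD 0.398, percentile 99.9), Adamts19 (0.354, 99.7), Adam23 (0.216, 99.3), Adamts10 (0.210, 98.4), Adamts2 (0.197, 98.3), Adamts16 (0.195, 98.3), Adam12 (0.187, 97.9), Adamtsl1 (0.161, 96.9), Adamts5 (0.153, 96.1) and Timp3 (0.125, 90.1). The median percentile over the members was 57.4. At the other end 4 of the 49, Adam17 (0.0478), Timp1 (0.0432), Adam15 (0.0476) and Mmp25 (0.0229), lay below 90% of their like. By the definition of a percentile about 10% of all genes lie at each end, and the count of low members is near that share. Neither count was tested. Adamts10 took its highest values in withdrawn embryo 3, at 11.48, and supplied embryo 5, at 11.54, against 11.00 to 11.33 in the others.

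**Figure D5:**
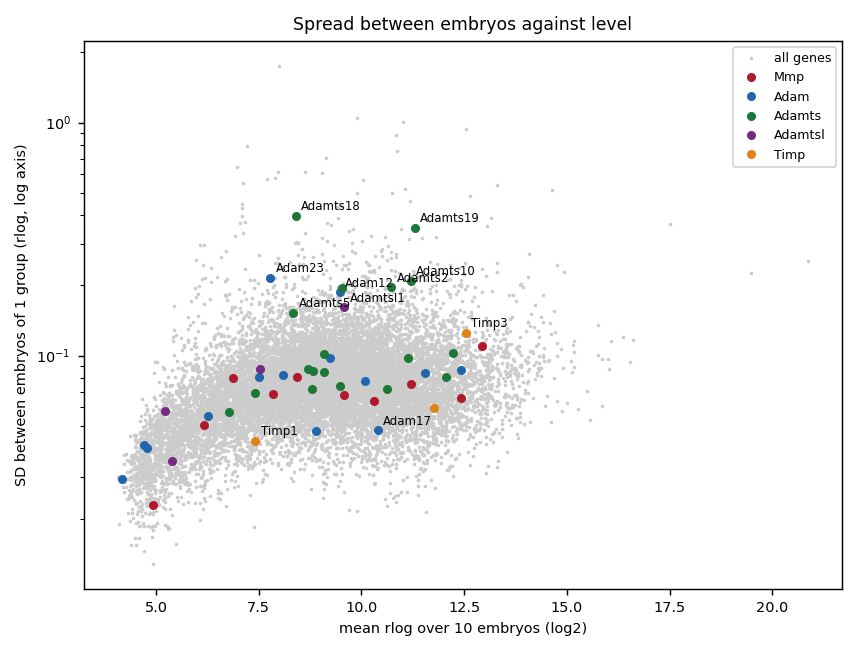
SD between embryos of 1 group (log axis) against the mean rlog (log2) of each gene, all genes in grey and members coloured by family. Adamts18 and Adamts19, at SDs of 0.398 and 0.354, lie above nearly all genes of their level, and Adam17 and Timp1 lie low.

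Levels of different genes were compared per length, as rlog minus log2 of the exon length in kb. On that scale Mmp2 led its family, at 11.24 ± 0.08 in withdrawn and 11.12 ± 0.14 in supplied embryos (SD, n = 5 each), followed by Mmp14 at 9.88 ± 0.05 and 9.80 ± 0.08 in the same groups. Mmp11 (8.88 ± 0.07 in withdrawn, 8.78 ± 0.06 in supplied embryos) and Mmp15 (8.78 ± 0.06 and 8.78 ± 0.08) lay next, with SDs that overlapped. Adam10 led the ADAM genes at 10.11 ± 0.10 in withdrawn and 10.16 ± 0.07 in supplied embryos, before Adam19 at 8.77 ± 0.11 and 8.66 ± 0.05. Adamts1 led its family at 9.85 ± 0.10 in withdrawn and 9.79 ± 0.11 in supplied embryos, with Adamts9 and Adamts10 next at 8.18 ± 0.09 and 8.14 ± 0.19 in withdrawn embryos, level within their spread.

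Timp2 (9.83 ± 0.06 in withdrawn, 9.76 ± 0.05 in supplied embryos) stood above Timp3 (9.55 ± 0.14 and 9.47 ± 0.11) and Timp1 (7.60 ± 0.03 and 7.56 ± 0.05). With the longest annotated transcript as the length, Timp3 stood above Timp2 (10.33 against 9.91 in withdrawn embryos), so that the order of these 2 genes depends on the length used. The lowest per-length levels were those of Adam33 (2.34 in withdrawn, 2.37 in supplied embryos), Adamtsl2 (2.39 in both) and Mmp25 (2.51 and 2.53). With the longest transcript Mmp25 was lowest (2.74 in withdrawn embryos), followed by Adamtsl2 (2.82), Adam4 (2.86) and Adam33 (2.93). The rlog scale shrinks the differences of such weakly expressed genes between embryos.

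Genes that control metalloproteases or are cut by them were taken from 7 lists, of which 121 of 140 genes were tested. By limma 0 of the 121 passed over all genes, with 8 higher and 6 lower at an unadjusted limma p under 0.05 (11.6% together, beside 5.3% of all genes). In the lists of activators and anchors (17 tested), of other metalloproteases (13 tested) and of transcriptional control (14 tested) 0 genes had an unadjusted limma p under 0.05. Reck, a membrane-anchored inhibitor of Mmp14, Mmp2 and Mmp9, was at 10.83, 10.84, 10.75, 10.80 and 10.71 in withdrawn embryos and at 10.64, 10.71, 10.83, 10.76 and 10.72 in supplied embryos (change 0.051, SE 0.0453, limma adjusted p = 0.987). Rhbdf2, which carries Adam17 to the cell surface, had a change of -0.036, the procollagen proteinase Bmp1 one of 0.0055, and the plasminogen activator Plau one of -0.00052.

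Among the substrates, 23 of 30 tested matrix genes (76.7%, beside 50.2% of all genes) had a change above 0, with a median of 0.075. The share was 58.1% among all genes with a mean rlog of 10 or more, and the list was not matched for level. At an unadjusted limma p under 0.05, 4 of them were higher and 3 lower (23.3% together, beside 5.3% of all genes). The proteoglycan Dcn was at 12.002, 12.01, 11.92, 11.74 and 11.84 in withdrawn embryos, against 11.81, 11.35, 11.66, 11.76 and 11.71 in supplied embryos (change 0.24, SE 0.0753, limma adjusted p = 0.879). Col3a1, a procollagen that Adamts2 processes, had a change of 0.19 (SE 0.0645), Col2a1, the collagen of cartilage, one of -0.21 (SE 0.0668), and Vcan, the proteoglycan versican that Adamts1 and Adamts9 cut, one of 0.073 (SE 0.0833). Dcn and Col3a1 stand in the stromal marker list as well. Of the membrane proteins that ADAMs shed, 12 of 25 were above 0, and Tnfrsf1a, a receptor that Adam17 releases, was at 10.51, 10.43, 10.40, 10.34 and 10.44 in withdrawn embryos, against 10.40, 10.26, 10.25, 10.33 and 10.28 in supplied embryos (change 0.12, SE 0.0452, limma adjusted p = 0.900).

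The cysteine protease Ctsk, a collagen-cutting cathepsin, had the smallest p of the 121. It was at 6.996, 6.997, 7.01, 6.86 and 6.86 in withdrawn embryos, against 7.14, 7.08, 7.09, 7.17 and 7.06 in supplied embryos. Every withdrawn value was under every supplied value, as for 0.464% of all genes, and the change was -0.16 (SE 0.042, limma adjusted p = 0.548).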

How the data were processed

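RNA was measured in sorted Oct4-negative gonadal somatic cells of single embryos, from 2 ng of total RNA per library per the labels' protocols. The table the authors deposited holds rlog values on the log2 scale for each gene and embryo. The submitters' processing notes name Trim Galore 0.4.0, TopHat2 2.1.1, DESeq2 1.20.1 and build mm9. How reads were counted, and whether strand was used, is not stated in these sources. The depth per sample is unknown, and counting error could not be given.

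Groups followed the treatment label. A minimum mean of 3 over the 10 samples removed no gene. All 13578 genes were fitted with limma 3.58.1 in R 4.3.3, with the trend option for the variance and without covariates, and p-values were adjusted by Benjamini-Hochberg over all of them. The fit was tested on simulated data. Exact permutation of group means used 252 orders, two-sided (smallest possible p 0.00794). Members were chosen by symbol. The members, the lists and the rule for named genes were chosen with earlier results of these data known. Values in every embryo are given for 26 members, and also for Adam23, chosen after its values were seen. The 26 were the 12 of smallest p, the highest mean of each family, those fixed by name and those with an embryo standing apart. Of the members fixed by name, Mmp8 and Timp4 had no row under these symbols. Ctsk, Dcn and Tnfrsf1a are among the 5 pathway genes of smallest p. Alternatives changed the filter, the variance model, the scaling, covariates, blocks and the embryos included. Exon lengths and overlaps come from GENCODE M21 on GRCm38 and promoters from RefSeq on GRCm38.p6, which are not the build of the deposited values. A planned search of protein sequences was not done.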

Additional observations from a re-analysis of the deposited data

Results flagged for a closer look

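In 146 groups of 5 embryos (98 of them of members) the embryo furthest from the rest was set against Dixon's critical value of 0.71, and 8 groups passed it, 5 of them of members. Chance flags about 1 group in 20.

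Adamts2 was low in withdrawn embryo 4 (10.48, against 10.84 or more in the other withdrawn embryos), with a gap of 0.827 of the range of the group. Adamts18 was high in supplied embryo 2 (9.08, against 8.33 at most in the other supplied embryos), with a gap of 0.768. Adam33 was high in withdrawn embryo 3 with a gap of 0.784, Adam10 was high in withdrawn embryo 1 with a gap of 0.733, and Adam9 was low in withdrawn embryo 2 with a gap of 0.749. Of the pathway genes, the secreted protein gene Serpinf1 was high in withdrawn embryo 1 with a gap of 0.734 and in supplied embryo 3 with a gap of 0.768, and the adhesion gene Vcam1 was high in withdrawn embryo 5 with a gap of 0.715.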

How the results depend on the processing

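In each of the 26 other settings 0 members and 0 pathway genes passed by limma, and the lowest adjusted p of a member was 0.409 (Mmp2 with the endothelial covariate). Leaving out both embryos of highest Adamts18, or the 3 of highest Fos, was chosen after seeing the data. The planned search of protein features was not run. Depth is unknown, and rlog shrinkage limits what weak genes can show. The cause of the differences below was not tested.

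Of all genes, 3 passed by limma, against 1 at a mean minimum of 7, without a variance trend, with quantile normalization or with embryos of 1 title number averaged, 5 with robust variances or array weights, 0 with the stromal and 12 with the immediate early covariate. With each embryo left out it was 0 to 4 (0 without withdrawn embryo 5 or supplied embryo 1, 1 without withdrawn embryos 2 or 4). Members at an unadjusted limma p under 0.05, 3 with all embryos, were 1 with title numbers averaged (4.29% of all genes) or the stromal covariate (3.94%), 6 with the endothelial covariate (12.2% of members, 9.26% of all genes), and 1 to 5 with each embryo left out. They were 5 (10.2% of members) without withdrawn embryo 5 or supplied embryos 1 or 4 (5.69%, 5.24% and 6.2% of all genes) and 1 without supplied embryo 3 (4.56%). By exact permutation Adamts3 missed that threshold. Members whose groups did not overlap, 0 with all embryos, were 3 with title numbers averaged (Adam15, Adam17, Adam19; 2.57% of all genes) and 3 without the embryos of highest Fos (Adam17, Adam19, Mmp2; 5.05%). They were 0 to 2 with each embryo left out (Adam17 and Adam19 without withdrawn embryo 3, 1.79%; Mmp11 without supplied embryo 1, 1.69%; Adam15 without supplied embryo 3, 1.41%; Mmp2 without supplied embryo 4, 1.83%).

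The median change of all members was 0.041 and that of Adamts 0.065 with the endothelial covariate, and that of Timp 0.017 with the stromal covariate. With each embryo left out the median of all members ran from 0.018 to 0.042 (highest without supplied embryo 5) and that of Mmp from -0.0055 to 0.035 (lowest without withdrawn embryo 5, highest without supplied embryo 3). That of Timp ran from 0.038 to 0.093, of Adamts from 0.013 to 0.045, of Adamtsl from 0.040 to 0.071 and of Adam from -0.024 to -0.0093. The median per-length level of members was 6.28, and 6.61 with the longest transcript. The median percentile of spread was 56.1 among genes within 1 rlog.

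No member passed in any setting, and 23 of the 49 changed sign in at least 1. Of 1260 member changes, 1257 moved by less than 1 SD between embryos. The other filters, the other variance models and the replicate block leave a change as it is by construction. Leaving out 1 embryo can move it by only part of that SD, so the count does not measure how stable the changes are. The values that follow are changes (withdrawn minus supplied) whose sign turned. With the stromal covariate the change of Timp3 was -0.034, of Mmp2 -0.0091, of Adamts12 -0.0031, of Adamts16 -0.066, of Adamts6 -0.017, of Adamts5 0.025, of Adamtsl2 -0.0092, of Mmp16 -0.046, of Mmp17 0.012, of Adamts15 -0.081 and of Adamts7 -0.0086. With the endothelial covariate Mmp28 was at -0.0055, Adamts10 at 0.080, Adamts19 at 0.10, Mmp16 at -0.0097 and Adamts18 at -0.14. With title numbers averaged Adamts14 was at -0.0097, Adamtsl5 at -0.00073, Adamts16 at -0.058, Adamtsl2 at -0.00084, Mmp9 at 0.0014 and Adamts15 at -0.014. With title numbers as random blocks Adamts16 was at -0.014 and Adamts15 at -0.0032. With quantile normalization Mmp9 was at 0.0059, Mmp17 at 0.011, Adam5 at 0.0052 and Mmp15 at -0.0095. With array weights Adamts16 was at -0.024, Adamts10 at 0.012, Adam5 at 0.0028 and Mmp15 at -0.0066. Without both embryos of highest Adamts18, Adamts16 was at -0.016, Adamts6 at -0.0043, Mmp9 at 0.0023, Mmp16 at -0.019, Adamts15 at -0.050 and Adamts7 at -0.010. Without the 3 of highest Fos, Adamts4 was at -0.0017, Adamtsl5 at -0.014, Adam9 at 0.0087 and Adamts7 at -0.012.

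With each embryo left out, changes ran from -0.062 to 0.060 for Adamts16, -0.083 to 0.075 for Adamts10, -0.021 to 0.034 for Mmp9, -0.014 to 0.035 for Mmp16, -0.018 to 0.018 for Mmp17, -0.019 to 0.012 for Adam5, -0.022 to 0.032 for Mmp15, -0.010 to 0.041 for Adamts4 and -0.0016 to 0.021 for Adamtsl2. They ran from -0.040 to 0.015 for Adamts17, -0.028 to 0.024 for Adamts15, -0.011 to 0.046 for Adamts7, -0.18 to 0.091 for Adamts19, -0.15 to 0.19 for Adamts18, -0.0010 to 0.047 for Adamtsl5, -0.11 to 0.0048 for Adamts5, -0.011 to 0.055 for Adamts14 and -0.0022 to 0.050 for Mmp28.

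With the replicate block, the number of each embryo as a factor, 2 genes and 0 members passed and the change of Mmp2 had a limma adjusted p of 0.999. The deviations of same-numbered embryos correlated between -0.364 and 0.172, and 1 of 10 samples correlated best with its own number. So few correlations, taken over all genes, cannot decide whether the numbers pair the samples.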

Other observations

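Foxc1 and Foxd1, transcription factor genes known from mesenchyme and from kidney stroma, ranked next after Adamts18 in the 2 embryos that stood apart for it. Ranked by the smaller of the deviations of withdrawn embryo 4 and supplied embryo 2 from the mean of all embryos, Adamts18 was 1, Foxc1 2 and Foxd1 3 of 13578 genes. Foxd1 was at 8.75 in withdrawn embryo 4 and at 8.63 in supplied embryo 2, against 8.12 to 8.39 in the other 8 embryos, and Foxc1 at 9.73 and 9.88, against 8.98 to 9.38. On the low side Adamts19 ranked 2, Col6a2 15 and Col6a1 17. The collagen VI genes Col6a1 and Col6a2 were at 12.65 and 13.00 in withdrawn embryo 4 and at 12.50 and 12.80 in supplied embryo 2, against at least 12.80 and 13.18 in the others. The 2 embryos were picked by their Adamts18 and Adamts19 values, so the ranks of these 2 genes follow from that choice. Other genes that ranked before Col6a2 and Col6a1 on the low side are not named here. The genes shown were chosen after their values were seen, and the pattern, which runs across both treatments, was not tested.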
